A study of Mus musculus with 30 samples.

Results

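Lost promoter CTCF sites are places near transcription start sites where CTCF was bound in mouse embryonic stem cells and where no CTCF peak was listed after the protein had been degraded. They were taken from the CTCF peak list of untreated cells as the peaks on chromosomes 1 to 19 and X that overlapped no peak of the treated list and whose summit lay within 1 kb of a GENCODE M21 basic start site (GRCm38). The members were thus chosen by the CTCF peaks of both times, and their CTCF values are given as a description. Of 29926 CTCF sites on these chromosomes, 3513 met the rule. The cells were E14, a mouse embryonic stem cell line, with an auxin-inducible degron on CTCF (genotype CTCF AID) in every group, and they were compared without indole-3-acetic acid (IAA), called 0 h, and after 12 h of it. CTCF and the cohesin subunit SMC1A were measured by ChIP-seq in the CTCF AID cells, with 1 library at each time. CHD4, CHD8, SMARCA4 and SMARCA5 were measured in biotin libraries from cells of the genotypes CTCF AID and biotin-CHD4, biotin-CHD8, biotin-SMARCA4 or biotin-SMARCA5, with 2 libraries per remodeler and time. The 1 protocol given for all libraries describes antibodies only, so how the biotin was captured is not given in the sources used here. All cells were grown without serum, with LIF and the inhibitors PD0325901 and CHIR99021. The labels do not say whether a line is a single clone or whether replicates came from separate cultures, so p-values measure only the spread between these libraries.

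CTCF binds DNA through an array of zinc fingers and stops cohesin, which extrudes chromatin into loops. At promoters it can sit next to the site where transcription starts, and it is known to keep nucleosomes in ordered arrays around its motif. CHD4 is the ATPase of the NuRD complex, SMARCA4 (BRG1) that of BAF complexes and SMARCA5 (SNF2H) that of ISWI complexes, while CHD8 is a CHD-family ATPase known to interact with CTCF. All of them move or evict nucleosomes, and many active promoters carry them whether or not CTCF is there.

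The sequences under the strongest lost promoter peaks are shown first, because they show the kind of DNA under CTCF peaks that were not listed at 12 h. A 19 bp model was learnt from the 2000 strongest CTCF sites away from promoters, and its consensus was NNNCCANNAGGGGGCGCNN, searched on both strands within 100 bp of each summit. The best match is in capitals with 5 flanking bases to either side, read along the strand of the match, in the order of the CTCF −log10 q (RefSeq sequence, GRCm38.p6).
Comtd1, chr14:21849037-21849065, minus strand: gcatgCAGCCACCGGGTGGCGAGAtgttc
Pkn3, chr2:30077595-30077623, plus strand: ccgcgTGGCCGGGAGGGGGCGCTGctccc
Adrm1, chr2:180171391-180171419, plus strand: cagcgCTGCCGCCAGGGGCCACCGccgct
Synm, chr7:67759849-67759877, minus strand: cgatcTGTCCGGCAGGGGGCGCTGtccgg
Dhrs13, chr11:78032302-78032330, minus strand: cgcctCGGCCTCGCGAGGGCGGCGgcagg
Zfp398, chr6:47835589-47835617, plus strand: tgcggGGGCCGCCAGGGGGCGCGCtgtcc

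A second set is shown because it lies in a repeat. These are the matches of the lost promoter sites where the CHD4 peaks that disappeared had the highest ranks, at Rtn2, 2210016L21Rik and Snord52, and they are nearly the same sequence.
Rtn2, chr7:19281864-19281892, minus strand: cctgtATGCCAGAAGAGGGCGCCAgatcc
2210016L21Rik, chr5:114941337-114941365, minus strand: cagacACACCAGAAGAGGGCGCCAgatcc
Snord52, chr17:34951226-34951254, minus strand: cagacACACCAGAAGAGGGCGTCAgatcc

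Whole windows show the surroundings of such matches. Rtn2 (reticulon 2, a membrane-shaping protein of the endoplasmic reticulum) had the site that lost all 4 remodelers. Among sites with a peak in all 16 remodeler libraries, 1810013L24Rik had the one whose lowest rank was highest. Gm20610 had the strongest site with a remodeler peak in no library. The windows reach 100 bp to either side of the CTCF summit on the plus strand, contain no annotated exon, and have the match in capitals.
Rtn2, chr7:19281780-19281980: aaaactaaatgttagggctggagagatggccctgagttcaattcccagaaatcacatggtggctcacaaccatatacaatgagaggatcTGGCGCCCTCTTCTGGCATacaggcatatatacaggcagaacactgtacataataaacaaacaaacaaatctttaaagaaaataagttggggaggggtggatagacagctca
1810013L24Rik, chr16:8829324-8829524: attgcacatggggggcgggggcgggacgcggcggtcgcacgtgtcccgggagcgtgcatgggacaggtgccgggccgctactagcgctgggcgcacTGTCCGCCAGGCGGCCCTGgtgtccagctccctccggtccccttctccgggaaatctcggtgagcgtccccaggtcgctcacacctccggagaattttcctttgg
Gm20610, chr10:61052331-61052531: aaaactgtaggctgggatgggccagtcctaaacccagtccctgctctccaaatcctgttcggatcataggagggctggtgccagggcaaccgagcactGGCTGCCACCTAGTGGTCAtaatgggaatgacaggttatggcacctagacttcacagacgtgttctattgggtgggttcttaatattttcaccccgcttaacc
The 1810013L24Rik window holds 21 CpG dinucleotides, the Rtn2 window 1 and the Gm20610 window 4.

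The lost promoter sites had 3403 nearest genes, and 3911 genes had a start site within 1 kb of one. The nearest start site belonged to a protein-coding gene at 2426 sites, to a lincRNA at 265, to an antisense RNA at 191 and to a processed pseudogene at 187. For 102 genes, 2 or more lost sites shared the same nearest gene. Bicdl2, Espn, Med12l, Plec, Sgk1 and Zdhhc1 had 3 or more, and 4 was the most. Of the summits, 1378 were intergenic, 1084 lay in introns, 456 in untranslated regions, 338 in non-coding exons and 257 in coding exons. Sites just inside the distance limit were those of Gm22717 at 998 bp and Ift122 at 999 bp, and those just outside were of Erh and AC160966.1, both at 1001 bp.

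Lost promoter summits lay on both sides of the start site and were spread more widely than those of the 512 promoter sites that overlapped a 12 h CTCF peak. They were upstream of the nearest start site in 58.1% of cases, against 79.1% of kept promoter sites. Within 100 bp of the start site lay 27.5% of the lost and 48.6% of the kept sites. The median distance was 259 bp for lost and 105 bp for kept sites. Of sites with a match, it lay on the strand of the nearest gene at 55.9% of lost and 66.1% of kept ones. These were counted where start sites within 1 kb were on 1 strand only. These shares describe 1 CTCF library per time and have no replicate check.

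**Figure D1:**
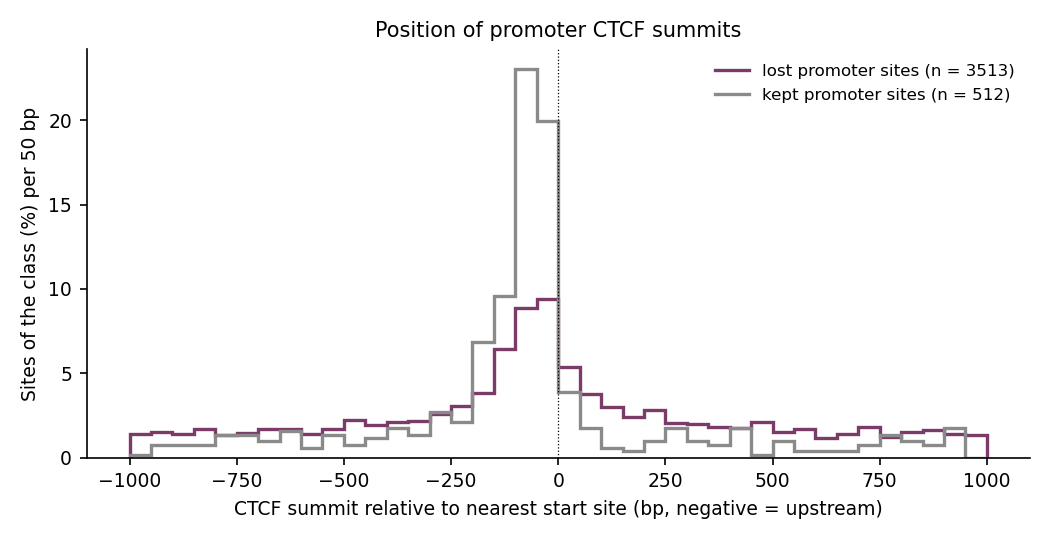
Position of CTCF summits relative to the nearest start site for lost (n = 3513) and kept (n = 512) promoter sites, as the percentage of each class per 50 bp, with negative positions upstream. Kept sites pile up just upstream of the start site, and lost sites have a lower peak there and broad shoulders on both sides.

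CTCF occupancy at 0 h, which the rule used, was weaker at lost than at kept promoter sites. The −log10 q of the peak, the authors' value from their peak caller, had a median of 28.2 at lost sites (range 1.37 to 405.7) and of 153.8 at kept sites, and the median fold enrichment was 11.2 against 35.1. Lost sites away from promoters, of which there were 24186, had medians of 29.2 and 11.6. Lost promoter sites were clear of the treated list: the smallest gap to a 12 h CTCF peak was 390 bp, and 21 sites had one within 1 kb. The strongest lost site was that of Comtd1, a gene with a catechol-O-methyltransferase domain, with a −log10 q of 405.7 at chr14:21848583-21849423. It was followed by Pkn3 (protein kinase N3) with 377.4, Adrm1 (a ubiquitin receptor of the proteasome) with 350.7, Synm (the intermediate filament protein synemin) with 344.3, Dhrs13 with 333.6 and Zfp398 with 322.5. The weakest were Gm10676 with 1.37 and C2cd4a with 1.55, neither with a match to the model.

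Fewer lost promoter sites carried the CTCF motif than kept promoter sites or lost distal sites. The model matched at 2427 of them, or 69.1% (exact Clopper-Pearson 95% interval 67.5% to 70.6%, counting error only), against 87.1% of kept promoter sites and 89.8% of lost distal sites. At 68121 start sites with no CTCF peak of the untreated cells within 1 kb, called CTCF-free, 4.31% of windows of the same length matched. Of the matches at lost promoter sites, 76.2% were centred within 20 bp of the summit. Among the 1171 lost promoter sites with the weakest CTCF peaks 53.7% matched, among the middle 1171 73.7% and among the strongest 1171 79.8%. The 1086 sites without a match had a median GC content of 65.2% and a median CpG ratio, observed over expected, of 0.758, against 54.7% and 0.457 at sites with one. The strongest of them without an exon in its window was upstream of Fchsd2, with a −log10 q of 256.3.

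In base composition lost promoter sites lay between kept promoter sites and lost distal sites. The median CpG ratio was 0.571 at lost promoter sites, 0.728 at kept promoter sites, 0.212 at lost distal sites and 0.338 at CTCF-free start sites. With a ratio of at least 0.6 as the limit, 1651 lost promoter sites were CpG-rich and 1862 CpG-poor. The word CCAGAAGAGGGC, the commonest 12 bases at the centre of a match (both strands), occurred at 211 lost promoter sites, or 6.01%. It occurred at 0.781% of kept promoter sites, 15.4% of lost distal sites and 0.0866% of CTCF-free start sites. At 208 of the 211 sites it lay wholly in sequence that the RefSeq genome marks as repetitive, as did 316 of all 2427 matches, against 1.79% of matches at kept promoter sites and 26.7% at lost distal sites. Short interspersed repeats of the B2 family are known to have spread CTCF motifs through the mouse genome; repeat families were not assigned here. Reads from near-identical repeat copies cannot always be placed, so peaks at these 316 sites are less certain than the others.

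Cohesin was present at 0 h at 1380 lost promoter sites, or 39.3%, as an SMC1A peak within 100 bp of the summit. The share was 74.0% at kept promoter sites and 43.6% at lost distal sites. It was higher where the CTCF peak was stronger, at 16.5% of the weakest 1171 lost promoter sites, 38.0% of the middle 1171 and 63.4% of the strongest 1171. At 12 h it was 0 of 3513, in a list that held only 10 SMC1A peaks in all.

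As a check of the degradation, 2248 CTCF peaks were listed after IAA against 29934 before it. The remodeler lists held between 40880 and 187294 peaks. They give no read depth, and a site without a listed peak can hold signal under the threshold of the peak caller. The CHD4 replicate 2 lists were the longest, with median peak widths of 119 and 94 bp against 433 and 475 bp in replicate 1. The names of the peaks follow 2 styles that differ between lists of a remodeler, and changes within a style are given beside the results.

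At 0 h most lost promoter sites held several remodelers. A CHD4 peak lay within 100 bp of the CTCF summit at 76.0% and 65.9% of the 3513 sites in the 0 h libraries, and at 61.4% and 43.5% in the 12 h libraries. CHD8 was at 69.3% and 63.6% at 0 h and at 58.6% and 51.6% at 12 h. SMARCA4 was at 68.9% and 58.2% at 0 h and at 59.6% and 63.5% at 12 h. SMARCA5 was at 32.7% and 46.3% at 0 h and at 43.8% and 31.9% at 12 h. For CHD4 and CHD8 the 12 h values were below all 0 h values, while for SMARCA4 and SMARCA5 the libraries of both times overlapped. The same sites moved by 100 kb to either side were occupied in 3.52% to 11.2% of cases, so the level at the lost promoter sites was far above this background at both times. Across the remodelers occupancy was lower by 8.37 points at 12 h (change −8.37, pooled replicate SD 7.73). The two-sided exact permutation p over 1296 relabellings was 0.0556 (Benjamini-Hochberg adjusted 0.0778 over 7 tests), so the change did not pass. All 4 remodelers had a lower mean at 12 h. Within 1 remodeler, 2 libraries against 2 allow no exact p below 0.333. The change became −11.5 points with an adjusted p of 0.0360 by exact permutation when only the stronger 50% of CTCF sites were used, and −10.6 with 0.0182 within peak-name styles.

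**Figure D2:**
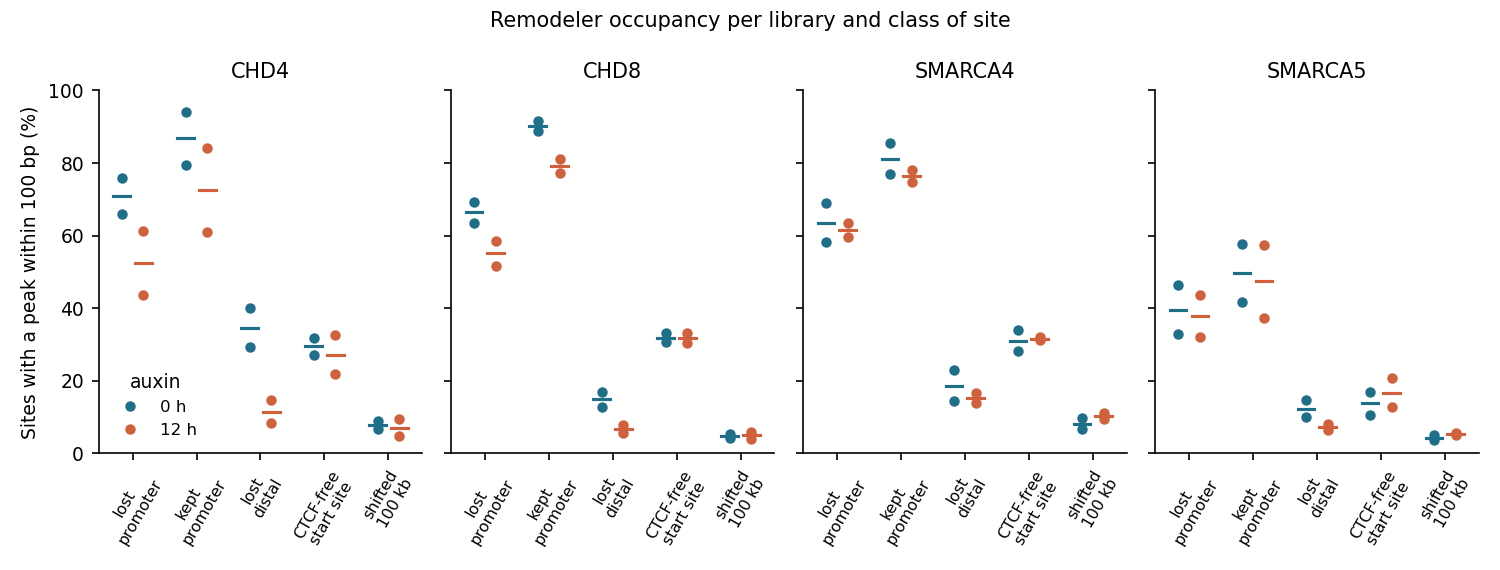
Percentage of sites with a remodeler peak within 100 bp, per library (points) with the mean of 2 libraries (bars), at 0 h and 12 h of IAA, for lost promoter sites, kept promoter sites, lost distal sites, CTCF-free start sites and lost promoter sites moved by 100 kb. At lost promoter sites both 12 h points of CHD4 and CHD8 lie below both 0 h points, while those of SMARCA4 and SMARCA5 overlap.

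Remodeler occupancy of lost promoter sites fell relative to start sites without CTCF. This comparison takes the log2 odds ratio of being occupied in each library, lost promoter sites against CTCF-free start sites. In CHD4 the log2 odds ratio was 2.76 and 2.38 at 0 h and 1.72 and 1.47 at 12 h. In CHD8 it was 2.19 and 1.98 at 0 h and 1.52 and 1.28 at 12 h, and in SMARCA5 2.03 and 2.08 at 0 h and 1.57 and 1.70 at 12 h. In SMARCA4 it was 2.11 and 1.83 at 0 h and 1.70 and 1.88 at 12 h, the only remodeler whose libraries overlapped. The mean change was −0.56 (pooled replicate SD 0.17), lower in 4 of 4 remodelers, and the two-sided exact permutation test gave p = 0.00309 (adjusted 0.00720). Within a peak-name style the change was −0.13 and −0.22 in SMARCA4 and −0.51 and −0.33 in SMARCA5, and −1.10 in CHD4 without its only library of the other style. The call was lost when a site counted only with a remodeler summit inside it, where the change was −0.29 with an exact permutation adjusted p of 0.192. CTCF-free start sites were occupied less often than lost promoter sites at the start, with CHD4 at 29.4% ± 3.34 before IAA and at 27.2% ± 7.55 after it (SD, n = 2 each). Mean occupancy of kept promoter sites was lower at 12 h too, by 8.13 points, against 8.37 at lost promoter sites.

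Lost promoter sites kept remodelers to a larger extent than lost distal sites. Lost distal sites held CHD4 in 34.6% ± 7.61 of cases before IAA and in 11.5% ± 4.36 after it (SD, n = 2 each). The log2 odds ratio of occupancy, lost promoter against lost distal sites, was 2.24 and 2.22 at 0 h and 3.22 and 3.08 at 12 h in CHD4. It was 3.46 and 3.58 at 0 h and 4.07 and 4.21 at 12 h in CHD8, 2.90 and 3.05 against 3.20 and 3.13 in SMARCA4, and 2.14 and 2.34 against 3.17 and 2.81 in SMARCA5. No 12 h library was as low as a 0 h library of its remodeler. The mean rise was 0.62 (pooled replicate SD 0.12), with the smallest two-sided exact permutation p the design allows, 0.00154 (adjusted 0.00540). It was 0.15 and 0.23 in the styles of SMARCA4 and 0.83 and 0.67 in those of SMARCA5. Against the 512 kept promoter sites the change of the log2 odds ratio was 0.31, and it did not pass (exact permutation p 0.114, adjusted 0.133). In each remodeler the mean ratio was higher at 12 h, so the odds fell less at lost than at kept sites. In CHD8 it was −2.26 and −2.18 at 0 h and −1.61 and −1.66 at 12 h. In SMARCA4 it was −1.41 and −1.26 at 0 h and −1.01 and −1.03 at 12 h. CHD4 and SMARCA5 libraries overlapped. Without CHD4 0 h replicate 2 the mean change was 0.47 with an adjusted p of 0.0238 by exact permutation. Kept sites also had fewer CHD8 peaks at 12 h, with 90.2% ± 1.93 before IAA and 79.2% ± 2.90 after it (SD, n = 2 each).

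**Figure D3:**
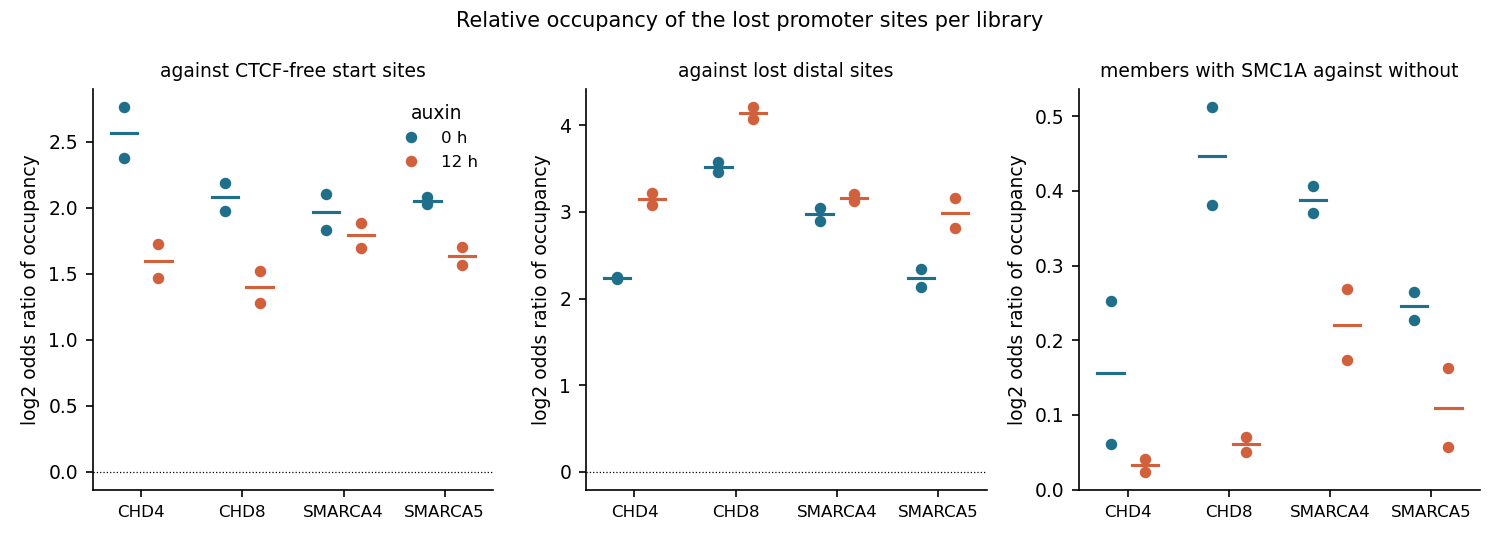
Log2 odds ratio of occupancy per library (points) and the mean of 2 libraries (bars) at 0 h and 12 h, for lost promoter sites against CTCF-free start sites, against lost distal sites, and for lost promoter sites that had SMC1A at 0 h against those that had not. The 12 h points are lower in the first comparison except for an overlap in SMARCA4, higher in the second and lower in the third.

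Single sites were called lost for a remodeler where both 0 h libraries and neither 12 h library had a peak, and gained in the opposite case. Of the 3513 lost promoter sites, 279 (7.94%) lost CHD4, against 12.0% of all CTCF sites. CHD8 was lost at 201 (5.72%, against 4.52% of all CTCF sites), SMARCA4 at 94 (2.68%, against 2.21%) and SMARCA5 at 111 (3.16%, against 2.38%). Gains numbered 8 for CHD4 (0.228%, against 0.13% of all CTCF sites), 7 for CHD8 (0.199%, against 0.2%), 56 for SMARCA4 (1.59%, against 1.02%) and 73 for SMARCA5 (2.08%, against 0.658%). The share lost was thus below the background for CHD4 and near it for the others, and the share gained was above it for SMARCA5. SMARCA5 was also gained at 1.95% of kept promoter sites and 1.44% of CTCF-free start sites, close to the 2.08% of lost promoter sites. When a remodeler summit had to lie inside the site, SMARCA4 and SMARCA5 gains (2.05% and 1.20%) outnumbered losses (0.826% and 0.683%). The shares of all CTCF sites under that rule are not given here, so this is not read as a trait of lost promoter sites. At least 1 remodeler was lost at 579 sites, 2 at 83, 3 at 10 and all 4 at 1. CHD4 and CHD8 were lost together at 46 sites, which is 16.5% of the CHD4 losses and 22.9% of the CHD8 losses. For these combined counts no share over all CTCF sites was computed, so they do not set lost promoter sites apart.

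A site can lose a remodeler only if it had one, so the losses were also read against the sites occupied in both 0 h libraries. CHD4 was then lost at 279 of 2215 lost promoter sites (12.6%), at 50.6% of lost distal sites and at 3.11% of CTCF-free start sites. For CHD8 the shares were 9.32%, 38.9% and 0.948%, for SMARCA4 4.79%, 15.8% and 4.46%, and for SMARCA5 12.1%, 33.9% and 7.48%. Lost promoter sites lay between both classes for each remodeler, with SMARCA4 close to the CTCF-free start sites. Kept promoter sites lost CHD4 at 5.47%, CHD8 at 5.86%, SMARCA4 at 7.01% and SMARCA5 at 11.3%, so for SMARCA4 the share was higher, and for SMARCA5 about as high, where a CTCF peak remained. No test was made of these shares, since sites are not replicates of a treatment. Here and below, such sites were picked by their 0 h libraries only, so some loss at 12 h is built into the shares. This part can differ between classes and was not measured. Mean CHD8 occupancy at 0 h, for example, was 14.9% at lost distal and 66.4% at lost promoter sites.

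CpG content divided the lost promoter sites. At the 1862 CpG-poor sites CHD4 was at 61.0% and 48.4% at 0 h and at 38.6% and 21.6% at 12 h, while at the 1651 CpG-rich sites it was at 92.9% and 85.5% and at 87.2% and 68.3%. Of sites with both 0 h libraries, CHD4 was lost at 26.4% of CpG-poor and 4.39% of CpG-rich sites. For CHD8 these shares were 19.7% and 4.00%, for SMARCA4 9.34% and 2.63% and for SMARCA5 24.1% and 6.05%. The mean log2 odds ratio of CpG-rich against CpG-poor sites changed by 0.34 in CHD4, 0.09 in CHD8 and 0.04 in SMARCA4. In these remodelers the libraries of both times overlapped, so a change of the ratio was not resolved. In SMARCA5 the ratio changed by 0.59, without overlap. Of sites with CHD4 in both 0 h libraries, those of genes other than protein-coding ones lost it more often, at 27.8% against 8.60%. For CHD8 these shares were 17.6% and 7.71%, for SMARCA4 8.46% and 4.08% and for SMARCA5 19.4% and 10.5%. As shares of all lost promoter sites of each kind, CHD8 losses were 5.70% and 5.73% and SMARCA4 losses 2.48% and 2.76%. The log2 odds ratio of occupancy between both kinds overlapped between the times in each remodeler. The limit of 0.6 and the comparison were chosen after the data were examined and have no test.

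Lost promoter sites whose match lay in a masked repeat had a larger CHD4 difference than the other matches. CHD4 was at 60.4% and 44.3% of these 316 sites at 0 h and at 24.7% and 15.8% at 12 h, with no overlap of libraries. At the 2111 sites with a match outside such repeats it was at 73.0% and 62.5% at 0 h and at 57.8% and 39.7% at 12 h. The log2 odds ratio of repeat against other matches was −0.94 ± 0.17 before IAA and −1.93 ± 0.19 after it for CHD4 (SD, n = 2 each). In SMARCA4 it was −2.03 and −1.93 at 0 h and −2.27 and −2.26 at 12 h, also without overlap. The CHD8 values overlapped, at −2.20 ± 0.12 and −2.23 ± 0.15 (SD, n = 2 each), as did those of SMARCA5. Of the 97 sites with the word CCAGAAGAGGGC and CHD4 in both 0 h libraries, 47 (48.5%) had it in neither 12 h library, close to the 50.6% of lost distal sites. This comparison was chosen after the data were examined, and the part of uncertain read placement in it was not tested.

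**Figure D4:**
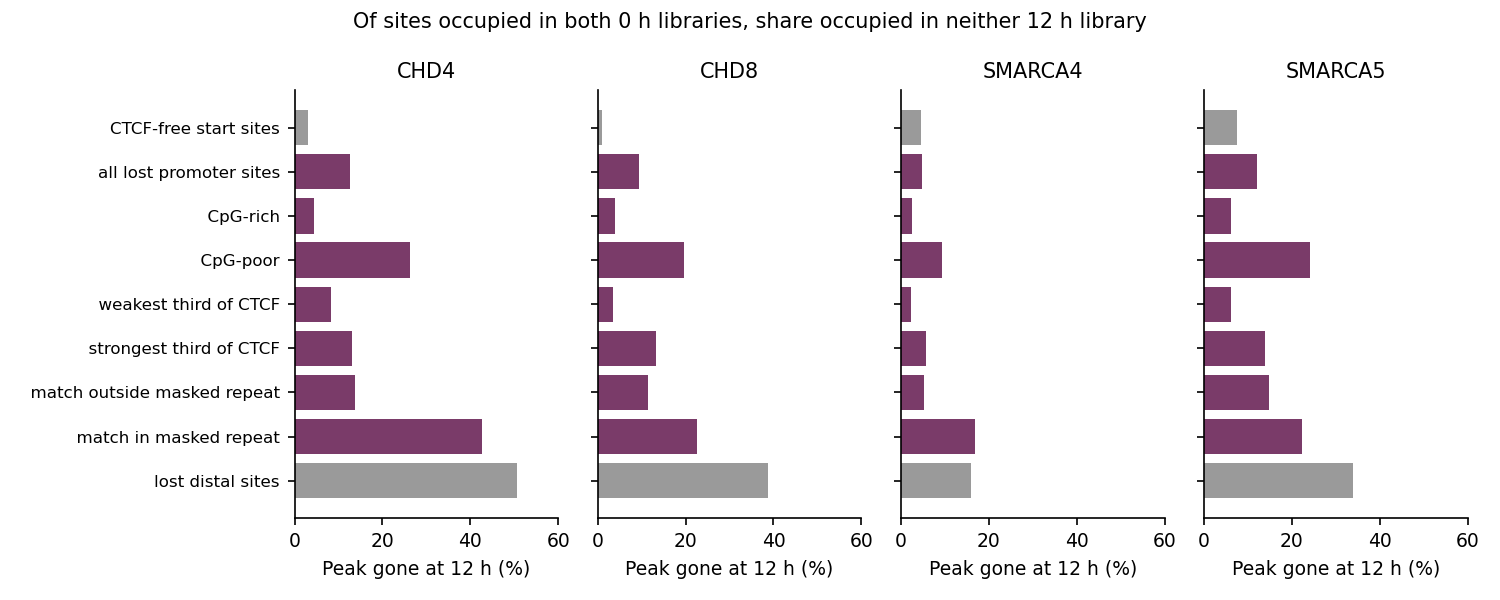
Of sites occupied by a remodeler in both 0 h libraries, the percentage occupied in neither 12 h library, for CTCF-free start sites, all lost promoter sites, subsets of the lost promoter sites, and lost distal sites. For CHD4 the bars run from 3.11% at CTCF-free start sites through 12.6% at lost promoter sites to 42.6% at those with a match in a masked repeat and 50.6% at lost distal sites. The middle 1171 sites by CTCF strength are not drawn. As sites were picked by their 0 h libraries, some loss at 12 h is built in.

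Lost promoter sites with cohesin held more remodelers than those without at 0 h, and the difference was smaller at 12 h. The log2 odds ratio of occupancy at sites with a 0 h SMC1A peak against sites without was 0.51 and 0.38 at 0 h and 0.05 and 0.07 at 12 h in CHD8. It was 0.41 and 0.37 against 0.17 and 0.27 in SMARCA4, 0.23 and 0.26 against 0.16 and 0.06 in SMARCA5, and 0.25 and 0.06 against 0.04 and 0.02 in CHD4. No 12 h library was as high as a 0 h library of its remodeler. The mean change was −0.20, with the smallest two-sided exact permutation p the design allows, 0.00154 (adjusted 0.00540), and −0.10 to −0.20 within the styles of SMARCA4 and SMARCA5. The call was lost among the stronger 50% of CTCF sites (change −0.09, exact permutation adjusted p 0.171), and with summits inside the site the change was 0.03. As SMC1A was commoner at strong CTCF peaks, the strongest and weakest 1171 sites were compared too, without a test. Their log2 odds ratio was 0.87 ± 0.03 before IAA and 0.07 ± 0.10 after it in CHD8 (SD, n = 2 each). It was 0.50 ± 0.34 and −0.04 ± 0.0047 in CHD4, 0.45 ± 0.04 and 0.05 ± 0.05 in SMARCA4, and 0.23 ± 0.02 and −0.21 ± 0.01 in SMARCA5 (SD, n = 2 each). Occupancy did not follow CTCF strength step by step, since the middle 1171 sites had the lowest mean for each remodeler at 0 h. For CHD8 the means were 64.3% at the weakest, 58.1% at the middle and 76.8% at the strongest sites. In the contrast of strongest and weakest sites the times did not overlap in any remodeler, and at 12 h the ratio was near 0 for CHD4, CHD8 and SMARCA4.

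Sites close to the start site held CHD4, CHD8 and SMARCA4 more often than those farther away, while SMARCA5 differed little at 0 h, with log2 odds ratios of 0.04 and 0.31. Of the 1723 sites within 250 bp, CHD4 was at 78.5% ± 4.84 before IAA and 63.5% ± 12.9 after it (SD, n = 2 each), and of the 1790 others at 63.7% ± 9.36 and 41.8% ± 12.4 (SD, n = 2 each). The log2 odds ratio of near against far sites rose by 0.20 across the remodelers (exact permutation p 0.0170, adjusted 0.0297). This call was fragile. It was lost when any of 10 of the 16 libraries was left out and under 8 of 11 other settings, although the direction held in all of them. In SMARCA4 the ratio did not rise, at 1.17 and 1.16 at 0 h and 1.18 and 1.13 at 12 h. At far sites the CHD8 summit was nearer to the CTCF summit than to the start site at 45.4% and 45.3% of occupied sites at 0 h and at 33.7% and 34.6% at 12 h, while the libraries of the other remodelers overlapped. The rank of remodeler peaks at lost promoter sites within their own list changed by 1.37 percentiles, which did not pass (exact permutation p 0.460, adjusted 0.460).

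Rtn2 had the only lost promoter site at which all 4 remodelers were lost. The CTCF peak at chr7:19281636-19282268 lay 744 bp upstream of the start site, in intergenic sequence, with a −log10 q of 38.9 and an SMC1A peak, and its match lay in a masked repeat. By percentile rank within the list, where 100 is the strongest peak, CHD4 peaks stood at 99.7 and 99.9 at 0 h, CHD8 at 85.6 and 79.0, SMARCA4 at 50.8 and 63.1, and SMARCA5 at 90.3 and 66.7. In the 8 libraries of 12 h there was no peak. The other repeat sites named above behaved differently among the remodelers: at Snord52 (a small nucleolar RNA) CHD4 stood at 98.1 and 99.0 at 0 h and was absent at 12 h, while CHD8 stood at 63.5 and 70.7 at 0 h and at 92.2 and 92.6 at 12 h.

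Of the 10 sites that lost 3 remodelers, 7 had no remodeler peak in any 12 h library. At Lgr6, a receptor for R-spondins, the site at chr1:135105869-135106389 had CHD4, CHD8 and SMARCA5 in both 0 h libraries and nothing at 12 h. Ttc9b had 7 of 8 libraries at 0 h and 0 at 12 h, and Psmg2, a proteasome assembly chaperone, 6 and 0. Gm47299 had 7 and 0. Rab27a, a small GTPase of vesicle transport, had 8 and 1, where the remaining peak was of SMARCA5 at a percentile of 36.1. These 5 lay 429 to 868 bp from the start site, but among the other 5 Psg16 lay at 44 bp, Tbx3os2 at 91 bp and Pcdhgb8 at 129 bp. The median CpG ratio over the 11 sites that lost 3 or more remodelers was 0.392, against 0.571 over all lost promoter sites.

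Other sites named for a loss kept the remaining remodelers to different degrees. At Cdc34, a ubiquitin-conjugating enzyme, SMARCA5 stood at 99.1 and 97.7 at 0 h in an intron 616 bp downstream of the start site and was absent at 12 h, while CHD8 stood at 98.9 and 99.0 and then at 98.8 and 98.5. At Gm14965, where Nrxn2 also had a start site within 1 kb, SMARCA5 stood at 99.4 and 99.5 and was then absent. The other 3 remodelers were present there in all 12 of their libraries. Kazald1 lost CHD8 (98.5 and 98.2) and kept SMARCA4 in its 4 libraries. Xpo1, the main nuclear export receptor, lost SMARCA4 (89.7 and 84.8) and kept CHD8 in its 4. Pdcd2l and Sgf29, a subunit of the SAGA complex, lost CHD8 and SMARCA4 together, and Pdcd2l went from 5 libraries to 0. Scn3a, a sodium channel, lost SMARCA4 and 2210016L21Rik lost CHD4, and both went from 3 libraries to 1. Among gains, SMARCA5 was in neither 0 h library and stood at 96.1 and 98.5 at 12 h at Eef2kmt, a methyltransferase of an elongation factor. CHD4 was gained at Atp2a2, a calcium pump of the endoplasmic reticulum, at 85.3 and 70.2.

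At the 6 strongest lost promoter sites no remodeler was called lost. This did not hold for strong sites in general, read as shares of sites with both 0 h libraries. CHD8 was lost at 13.2% of the strongest 1171 and 3.59% of the weakest 1171, and CHD4 at 13.1% and 8.38%. SMARCA4 was lost at 5.60% and 2.39%, and SMARCA5 at 13.9% and 6.17%. Among the middle 1171 the shares were 10.5% for CHD8, 16.8% for CHD4, 6.61% for SMARCA4 and 16.4% for SMARCA5. Only for CHD8 did the share thus rise step by step with CTCF strength. At Adrm1, Synm, Dhrs13 and Zfp398 all 16 libraries had a peak, and at Comtd1 and Pkn3 15 did, each without SMARCA5 0 h replicate 1. In total 366 lost promoter sites (10.4%) were occupied in all 16 libraries and 479 (13.6%) in none. The occupied ones had a median CpG ratio of 0.853, and 88.8% were at protein-coding genes. Those in no library had a ratio of 0.221, 30.5% at protein-coding genes, and a match in 87.7%. By their lowest rank over the 16 libraries, Spin1, a reader of histone methylation, Cdyl, a chromodomain protein, and 1810013L24Rik stood highest. No library was below the percentile of 89.5 at these sites. Gm20610, with a −log10 q of 152.1, was the strongest site in none.

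**Figure D5:**
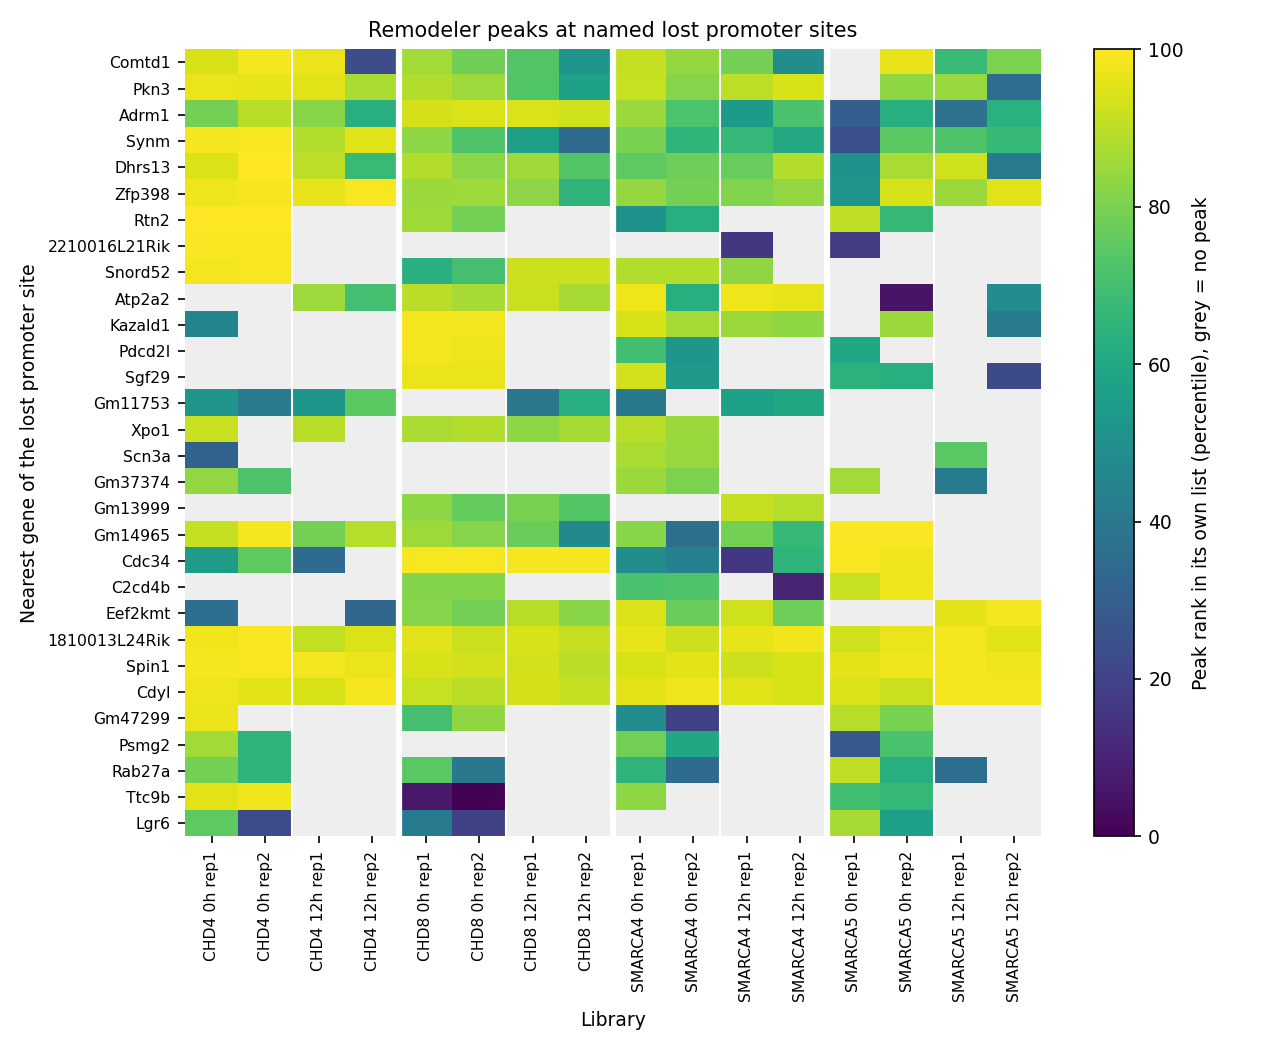
Percentile rank of the remodeler peak within its own list (colour, 100 is the strongest; grey means no peak) at named lost promoter sites (rows) in the 16 libraries (columns, 2 per remodeler and time). The strongest CTCF sites are coloured across most columns, and Rtn2 is coloured in the 8 columns of 0 h and grey in the 8 of 12 h.

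Gene groups differed in how often they had a lost promoter site. Of 21728 protein-coding genes, 2622 (12.1%) had one within 1 kb of a start site. The clustered protocadherins, cell-surface adhesion proteins whose alternative promoters are known to be chosen with the help of CTCF, had one at 46 of 57 genes (80.7%). The lists were chosen with earlier results of these data known, and no test was made. Genes named below beyond the 4 strongest CTCF sites of a list were picked after their values were seen, for their calls or their occupancy: Pcdhgb8, Hoxd9, Myod1, Ctcf, Mbd3, Rpl13a, Rpl35, Chek2, Mycn, Rbl1, Dlk1, Peg13 and Sgce.

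The protocadherin sites were moderately strong and, at Pcdha and Pcdhb genes, poor in remodelers. Their 47 CTCF peaks, 13 of them at Pcdha, 16 at Pcdhb and 18 at Pcdhg genes, had a median −log10 q of 38.9 and lay a median of 65 bp from the start site. A match was found at 19 (40.4%) and an SMC1A peak at 8. At 0 h 26 of the 47 had no remodeler peak in any library (55.3%, against 14.2% of all lost promoter sites), and at 12 h 38 (80.9%, against 25.1%). All of the 26 were at Pcdha or Pcdhb genes, while each Pcdhg site had a peak in 1 to 7 of the 8 libraries of 0 h. CHD8 was at 23.4% and 29.8% of them at 0 h and at 2.13% and 4.26% at 12 h, without overlap. CHD8 was called lost at 9 of 47, all of them Pcdhg sites, and the other remodelers at 3 each, with no gain. Among all lost promoter sites CHD8 was lost at 5.72%, CHD4 at 7.94%, SMARCA4 at 2.68% and SMARCA5 at 3.16%. Pcdhgb8 lost CHD4, CHD8 and SMARCA5, with 7 libraries at 0 h and 2 at 12 h. The genes of a cluster are close copies, so peaks at neighbouring promoters are not independent and reads may be misplaced among them.

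Among developmental regulators, Foxa1 was the only lineage gene whose lost promoter site lost a remodeler, 1 of 8 sites against 16.5% of all lost promoter sites. Of 40 lineage regulators 8 had a lost promoter site, and at Foxa1, a pioneer factor of endoderm, CHD4, CHD8 and SMARCA5 were in both 0 h libraries and no remodeler was in any 12 h library. Eomes and Mesp1, T-box and bHLH factors of mesoderm, had 8 libraries at 0 h and 7 at 12 h, and Myod1 had none at either time. Of 39 Hox genes 5 (12.8%) had a lost site, near the share of all coding genes. Hoxb5 lost CHD4 (3 libraries at 0 h, 0 at 12 h), Hoxa10 and Hoxc5 lost CHD8, and Hoxd9 lost SMARCA4 and gained SMARCA5. The remaining Hox site, at Hoxd10, had no call, with 8 libraries at 0 h and 6 at 12 h. Of 28 pluripotency factors only Tbx3 (3.57%) had a lost site, with 6 libraries at 0 h and 7 at 12 h.

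Genes of CTCF and cohesin had lost sites at 6 of 27 (22.2%). The site of Ctcf itself lay 262 bp downstream of the start site with a −log10 q of 27.7, and had 8 libraries at 0 h and 7 at 12 h. Stag1, a cohesin subunit, had a −log10 q of 212.3 and all 16 libraries. Esco1, a cohesin acetyltransferase, and Mbd3, a NuRD subunit from the list of remodelers, had all 16 too. Stag2, the other STAG subunit of mitotic cohesin, lost SMARCA4. Pds5a, a cohesin regulator, had a site 161 bp upstream with all 16 libraries and another 930 bp downstream that lost CHD4. Of 52 genes of remodelers and their partners, 8 (15.4%) had a lost site, among them Chd8, and their 7 nearest sites had no call, where 83.5% of all lost promoter sites had no loss call either.

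For the following lists, the share of all lost promoter sites that lost at least 1 remodeler was 16.5%. Ribosomal protein genes had lost sites at 18 of 79 (22.8%); 2 of the 17 nearest sites lost a remodeler, CHD4 at Rpl13a and SMARCA4 at Rpl35. The strongest was at Rplp0, with a −log10 q of 304.6, where CHD8 was in its 4 libraries. Cell cycle regulators had them at 11 of 53 (20.8%), and 1 of these sites, 723 bp downstream of the start site of the checkpoint kinase Chek2, lost CHD4 and SMARCA5. At Cdkn2b, Mycn and Rbl1 all 16 libraries had a peak. The p53 list had lost sites at 5 of 30 genes (16.7%), and its 3 nearest sites, at Bbc3, Plk2 and Perp, had no call. Imprinted genes had them at 11 of 48 (22.9%). CHD4 was lost at Dlk1 and Peg13 and CHD8 at Peg12 and Sgce, 4 of 10 nearest sites. At Commd1 all 16 libraries had a peak.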

How the data were processed

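ChIP-seq peak lists were analysed for 20 of 30 samples, and the 10 inputs were not analysed here. Per the submitters' processing notes, Trim Galore, Bowtie2, MACS2 and deepTools were used and the builds mm10 and hg38 are named, with no versions or order. Each deposited list is narrowPeak with 10 columns and belongs to 1 library, so replicates had not been pooled. The deposited columns were read as the score (column 5, which was not used), the fold enrichment (column 7, a ratio), −log10 p (column 8), −log10 q (column 9, at least 1.30 in each list) and the summit offset (column 10). Depth is not in the lists, so no interval for a peak can be given.

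Sites were occupied where a peak overlapped the CTCF summit ± 100 bp by 1 bp. Log2 odds had 0.5 added per cell. GENCODE M21 gave start sites and RefSeq GRCm38.p6 sequence and masked repeats. Tests were two-sided exact permutations of time labels within remodelers, over libraries, with Benjamini-Hochberg adjustment over 7. Python 3.11.15, NumPy 2.4.6, pandas 2.3.3 and SciPy 1.17.1 were used, and the measures were tested on simulated data. Named sites were the 6 strongest and 2 weakest CTCF peaks, the 3 highest ranked losses and the highest ranked gain per remodeler, 3 in all 16 libraries, up to 6 that lost most remodelers, 2 in none, up to 4 sites per gene list by −log10 q, and sites beside the 1 kb limit; Fchsd2, Psg16, Tbx3os2, genes with 3 or more sites and the list genes so marked in the text were picked after their values were seen. One site that the rule names is not reported here. Members and lists were chosen with earlier results of these data known. The closing section gives the alternatives.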

Additional observations from a re-analysis of the deposited data

Results flagged for a closer look

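Of the tested differences between classes of site in how occupancy changed from 0 h to 12 h, 4 passed. The log2 odds ratio of lost promoter against CTCF-free start sites changed by −0.56, that of lost promoter against lost distal sites by 0.62, that of lost promoter sites with SMC1A against those without by −0.20, and that of sites within 250 bp of a start site against those beyond by 0.20. No group has enough libraries for a check of outliers.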

How the results depend on the processing

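The change against lost distal sites kept its direction and call under 11 alternatives (0.54 to 0.95) and without each library (0.58 to 0.66). That against CTCF-free start sites held without each library (−0.61 to −0.52) and under 13 of 14 alternatives. Against CpG-rich CTCF-free start sites, a reference chosen after seeing the data, it was −0.50. When a remodeler summit had to lie inside the site, the change against CTCF-free start sites was −0.29, that against kept promoter sites −0.19, the cohesin contrast 0.025 and the distance contrast 0.38, none past the threshold, and the cause was not tested. The cohesin contrast also missed it with peaks of −log10 q of at least 5 (−0.12), an overlap of 100 bp or 50% of the peak (−0.13) and the stronger 50% of CTCF sites (−0.088); without each library it held, from −0.23 to −0.18. The distance contrast missed it within peak-name styles (0.19), with equal list lengths (0.21), the wider overlap (0.21), protein-coding transcripts (0.18), a 500 bp promoter distance (0.091) and without both CHD4 replicate 2 libraries (0.25, chosen after seeing the data); without each library it ranged from 0.14 to 0.27. Occupancy passed within styles (−10.6), with ± 250 bp (−7.91) and with the stronger 50% (−11.5), and ranged from −10.6 to −6.13 without each library. It passed without SMARCA4 0 h replicate 2 (−9.71) or SMARCA5 0 h replicate 1 (−10.1). The change against kept sites passed without both CHD4 replicate 2 libraries (0.38) and ranged from 0.14 to 0.47 without each library, and the rank change ranged from 0.20 to 2.54.

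With the replicate number as a block the distance contrast was 0.20 with an exact permutation adjusted p of 0.0656, and no other call changed. Deviations of same-numbered libraries correlated at −0.08 to 0.06, so the numbers were not taken as pairs.

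Site calls in percent of lost promoter sites moved as follows. Shares over all CTCF sites under these settings are not given here, so no move is read as particular to lost promoter sites. With summits inside, CHD4 gains were 1.51, CHD8 losses 2.76 and gains 0.968, SMARCA4 losses 0.826, and SMARCA5 losses 0.683 and gains 1.20. With −log10 q of at least 5, CHD4 and CHD8 gains were each 0.114 and SMARCA5 losses 1.59. With equal list lengths CHD4 losses were 4.41 and gains 0.484. CHD8 gains were 0.114 with the wider overlap. SMARCA4 losses were 1.68 with ± 250 bp. With the stronger 50% of sites CHD8 losses were 8.71 and gains 0.0613. The block and leaving out a library, protein-coding transcripts and the shorter distance gave no site calls.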
